A study of Mus musculus with 4 samples.

Results

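The 6 genes described here, Pparg, Cd36, Fabp4, Mogat1, Lpl and Vldlr, stand for lipid uptake and PPAR-gamma in the liver. They were chosen by name, as every probe set of the array that is annotated to 1 of these symbols alone. That gave 17 of the 45101 probe sets, for 6 of 18193 genes. The liver RNA came from male mice of the inbred strain C57BL/6J at the ages of 4, 8, 13 and 21 months. All groups ate a low-fat diet without restriction, so no other diet is compared. At each age the RNA of 6 mice was combined into 1 pool and hybridised to 1 array. Without replicate arrays the spread between mice is unknown and a pair of ages cannot be tested. The number of arrays limits the precision.

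PPAR-gamma is a nuclear receptor that binds DNA as a partner of RXR and switches on genes that take up and store fat. It is the main regulator of fat cells, is present at a low level in healthy liver, and is higher in several mouse models of fatty liver. CD36 carries long-chain fatty acids across the cell membrane, FABP4 binds them in the cytoplasm, and MOGAT1 joins a fatty acid to monoacylglycerol on a route to triglyceride. Lipoprotein lipase releases fatty acids from circulating triglyceride, and the VLDL receptor takes up the triglyceride-rich particles.

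The values are log2 expression values, so a difference of 1 is 2-fold. Each gene is represented by 1 probe set, that of highest mean level, and was kept when that mean was at or above 3.74, the median over all probe sets. This kept 11587 genes and 5 of the 6 members, with Vldlr below the limit. A difference was counted when it was at least 1.5-fold, a log2 difference of 0.585. The central 95% of kept genes lay between -0.35 and 0.52 for 21 vs 4 months and between -0.35 and 0.35 for 8 vs 4 months. The labelled tissue was checked with hepatocyte markers. All 9 that were on the array passed the limit, with mean log2 levels of 11.77, 11.59, 11.66 and 11.74 at 4, 8, 13 and 21 months.

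The promoters of these genes were searched for letters that the receptor is known to bind. RefSeq promoter windows of GRCm38.p6, from 250 bases before to 50 after an annotated start, were matched for Pparg, Cd36, Mogat1 and Vldlr, which are 4 of the 6 members. They were searched on both strands for the half-site AGGTCA, and for the direct repeat of it with 1 base between the copies, which PPAR and RXR bind together and which holds the half-site at both ends. None of the 7 windows of these genes held the full repeat, and 13 of all 32851 windows (0.0396%) did. The half-site was found in 16.3% of all windows, in the Cd36 window and in 2 of the 3 Pparg windows. Sequence is shown from every window of these genes that held a half-site, and from no other. Capitals mark the half-site or its reverse complement. The Cd36 sequence is the 250 bases before the start, at chr5:17835897-17836146 on the minus strand. The Pparg sequences lie at chr6:115361096-115361141 and chr6:115362320-115362348 on the plus strand.
Cd36: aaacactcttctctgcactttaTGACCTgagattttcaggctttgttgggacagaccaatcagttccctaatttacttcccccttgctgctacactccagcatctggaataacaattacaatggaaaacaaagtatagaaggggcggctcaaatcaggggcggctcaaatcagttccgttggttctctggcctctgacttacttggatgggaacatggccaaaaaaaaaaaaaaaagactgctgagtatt
Pparg, first start: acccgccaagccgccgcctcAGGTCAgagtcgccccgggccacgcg
Pparg, second start: tttatataagggacgcgaggAGGTCAaga
These matches are a description of the letters in the windows, and binding was not measured.

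**Figure D1:**
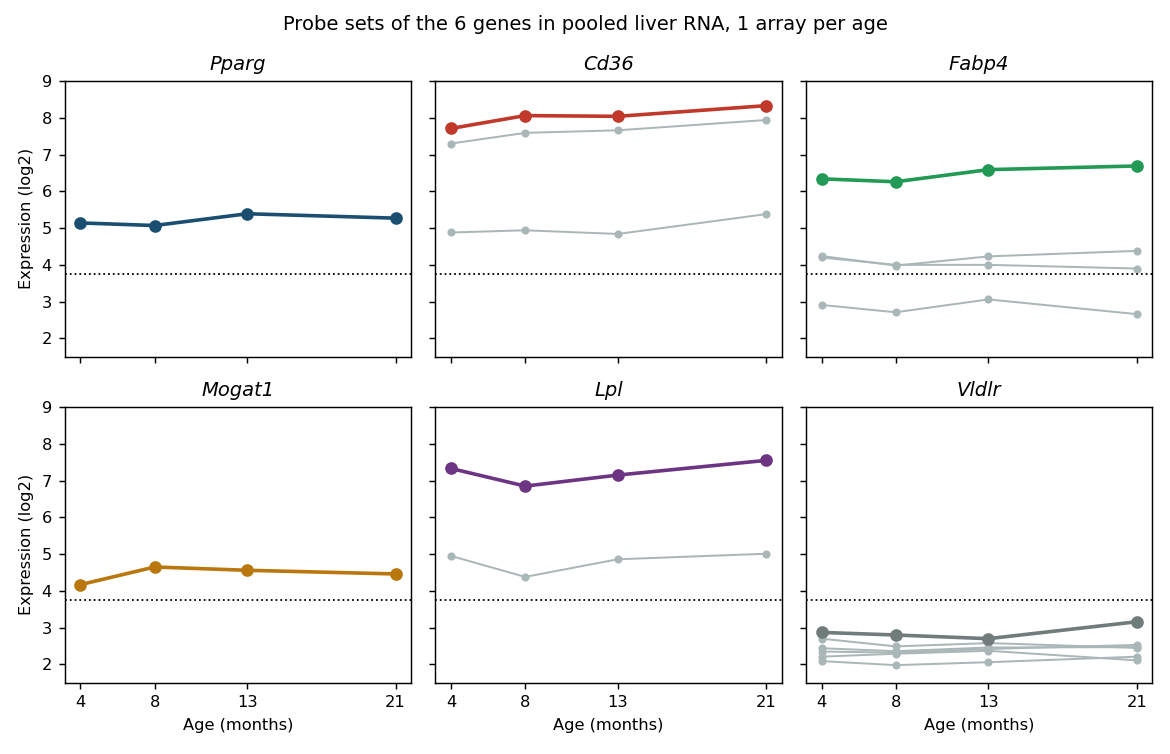
Expression (log2, vertical axis) of every probe set of the 6 genes against age in months, 1 panel per gene and 1 array of pooled RNA per age. Coloured lines are the probe sets that represent the genes, grey lines the other probe sets, and the dotted line is the limit of 3.74. Cd36 was highest at 21 months in all 3 probe sets, Lpl was lowest at 8 months in both, and all 6 Vldlr probe sets lay below the limit.

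The receptor itself differed little with age. Pparg (probe set 1420715_a_at) was at 5.14, 5.07, 5.39 and 5.27 at 4, 8, 13 and 21 months. The 13-month pool was the highest and the 8-month pool the lowest, 0.32 apart. The value at 21 months was 0.13 above that at 4 months. It has 1 probe set, so its isoforms could not be told apart and no second probe set could be set beside it.

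Cd36 was the member with the largest difference between the ends of the age span. Its probe set 1450883_a_at was at 7.71, 8.06, 8.04 and 8.33 at 4, 8, 13 and 21 months. The 4-month pool was the lowest, the 8-month and 13-month pools were nearly equal, and the 21-month pool was the highest. At 21 vs 4 months it was higher by 0.62, or 1.54-fold, just past the 1.5-fold size, and it was the only member to pass it in that comparison. By that size 2.11% of all kept genes were higher and 0.423% lower at 21 vs 4 months, against 1 and 0 of the 5 kept members. After quantile normalization the difference was 0.57, below the size. Against the mean of the 3 younger pools it was 0.39.

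The other probe sets of Cd36 differed from 4 to 21 months by like amounts, and 1 of them took another path. Probe set 1423166_at was at 7.30, 7.59, 7.66 and 7.94, higher at each age than at the one before. At 13 vs 8 months it differed by 0.07, against -0.02 in the first. Probe set 1450884_at was at 4.88, 4.94, 4.84 and 5.38. In this probe set the first 3 ages were close together and the 21-month pool stood apart. Over the 3 probe sets the difference at 21 vs 4 months was 0.50 to 0.64, and at 8 vs 4 months 0.06 to 0.35. The probe sets read the same 4 RNA pools, so their agreement says nothing of the spread between mice.

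Lpl was lowest at 8 months and highest at 21 months. Probe set 1415904_at was at 7.33, 6.85, 7.15 and 7.55 at 4, 8, 13 and 21 months. The second probe set, 1431056_a_at, was at 4.95, 4.38, 4.86 and 5.01, with the same order of ages. At 8 vs 4 months the difference was -0.48 in the first and -0.57 in the second, so both stayed short of 1.5-fold. At 21 vs 8 months Lpl was higher by 0.70, or 1.62-fold, and by 0.63 in the second probe set. It was the only one of the 5 kept members past the size at 21 vs 8 months, where 2.66% of all kept genes were higher by that size and 0.699% lower. At 21 vs 4 months the difference was 0.22.

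Macrophages are a cell type that expresses Lpl. The list of macrophage and Kupffer cell markers was on average also lowest at 8 months and highest at 21 months. All 14 macrophage and Kupffer cell markers were above the level limit at every age, the lowest value being 4.42 for Marco at 8 months. Of these, 14 were lower at 8 vs 4 months, at 13 vs 8 months 14 of 14 were higher, and at 21 vs 13 months 12 were higher and 2 lower. Of all kept genes 48.7% were lower by any amount at 8 vs 4 months, and 50.2% and 50.4% were higher at the other 2 steps. Their summed level on the linear scale was 3503, 2615, 3702 and 5890 at 4, 8, 13 and 21 months. Their median difference was 1.12 at 21 vs 8 months and 0.72 at 21 vs 4 months, where Lpl differed by 0.22. A separate list of lipid-associated macrophage markers, with 4 kept genes, did not share the low value at 8 months. Its means were 6.60, 6.61, 6.76 and 7.07 at 4, 8, 13 and 21 months, and its median at 8 vs 4 months was 0. In whole liver RNA, more cells of a type and more RNA per cell cannot be told apart, and the part of macrophages in the Lpl and Cd36 values was not tested. All 9 hepatocyte markers were lower at 8 vs 4 months too, their median being -0.06, and 7 of 9 were higher at 13 vs 8 months, with a median of 0.06. Their median at 21 vs 8 months was 0.07. Like Lpl, the mean of the endothelium markers was lowest at 8 months and highest at 21 months. It was at 6.94, 6.80, 6.87 and 6.97 at 4, 8, 13 and 21 months, and the median at 21 vs 8 months was 0.14. At 8 vs 4 months 9 of the 13 were lower and 4 higher, with a median of only -0.05. Lyve1, at -0.92, was the only one past 1.5-fold there and weighs on the mean. The part of endothelium in the Lpl and Cd36 values was not tested either.

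Fabp4, a gene of fat cells, macrophages and endothelium, gave different answers in its 4 probe sets. Probe set 1417023_a_at, with the highest level, was at 6.34, 6.26, 6.59 and 6.69 at 4, 8, 13 and 21 months. Its 2 older pools lay above its 2 younger pools, and the difference at 21 vs 4 months was 0.35. Probe set 1425809_at was at 4.20, 4.00, 4.00 and 3.90, with its lowest value at 21 months. Over the 4 probe sets the difference at 21 vs 4 months ran from -0.30 to 0.35, with 2 higher and 2 lower, and the mean over all of them differed by -0.015. At 8 vs 4 months all 4 were lower, from -0.26 to -0.08. No direction across the whole age span can be given for Fabp4.

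Adipocyte markers were measured beside Fabp4. Of the 11 listed, 8 were on the array and 6 of these were below the limit at every age. Adipoq, the hormone adiponectin that is made almost only by fat cells, was at 2.40, 2.20, 2.44 and 2.15, and Lep, which encodes leptin, was at 3.17, 3.18, 3.07 and 3.06. The 2 that were kept were Lipe, at 5.33, 5.52, 5.68 and 5.51, and Retn, at 4.62, 4.55, 4.40 and 4.48. Lipe is also in the list of PPAR-gamma target genes described below. The summed linear level of the 8 was 102, 107, 109 and 104 at the 4 ages. With 6 of the 8 below the limit, this sum does not measure fat cell content. Endothelium markers, all 13 above the limit, had summed levels of 2155, 2051, 2105 and 2232, and their median difference at 21 vs 4 months was 0.05. Their part in the Fabp4 values was not tested.

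Mogat1 was lowest at 4 months and close to level after that. It was at 4.17, 4.65, 4.56 and 4.46 at 4, 8, 13 and 21 months, in its only probe set, 1419504_at. The 3 older pools lay within 0.19 of each other, and each was above the 4-month pool. The largest difference was 0.48, or 1.39-fold, at 8 vs 4 months, and 0.29 remained at 21 vs 4 months. These values are not far above the level limit of 3.74, where differences on the array are compressed.

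Vldlr could not be followed. Its 6 probe sets ranged from 1.98 to 3.16 over all ages, each with a mean below 3.74. The probe set with the highest mean, 1434465_x_at, was at 2.87, 2.80, 2.70 and 3.16. At 21 vs 4 months 4 of the 6 probe sets were higher and 2 lower, from -0.25 to 0.29. Values this low cannot be told from background, so no difference is drawn from them.

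**Figure D2:**
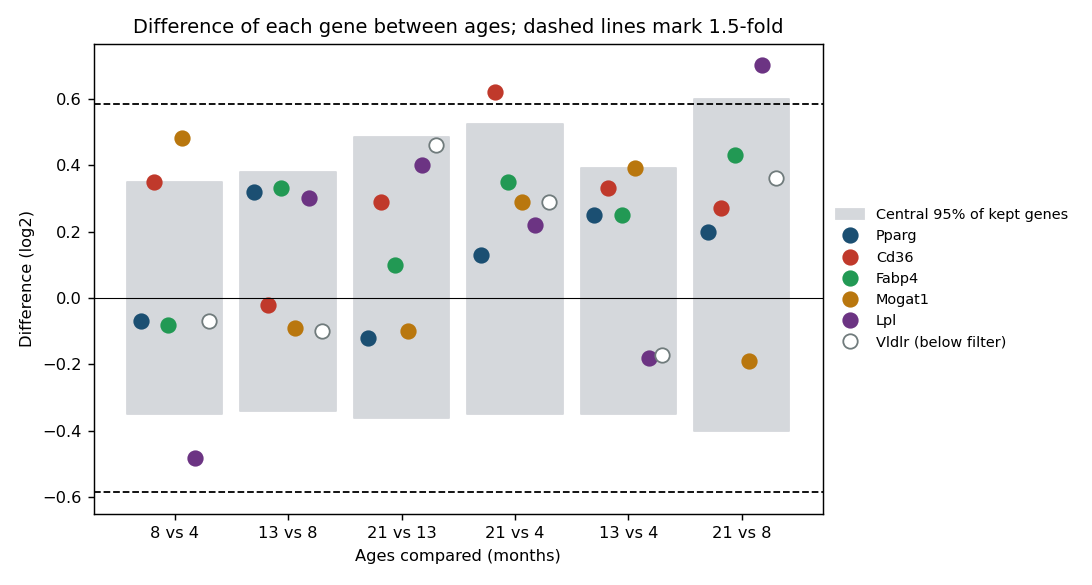
Log2 difference (vertical axis) of each gene's representative probe set in 6 comparisons of ages (horizontal axis), with Vldlr as an open circle because it lay below the level limit. Grey boxes hold the central 95% of the 11587 kept genes and dashed lines mark 1.5-fold. Cd36 at 21 vs 4 months (0.62) and Lpl at 21 vs 8 months (0.70) are the points past a dashed line.

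Taken step by step, no kept member passed 1.5-fold between neighbouring ages. At 8 vs 4 months 0 of 5 were counted in either direction, where 0.501% of kept genes were higher and 0.354% lower by that size. Mogat1 and Cd36 were higher, by 0.48 and 0.35, while Lpl was at -0.48, Fabp4 at -0.08 and Pparg at -0.07. So the members did not move as a block at this step. Mogat1 and Lpl were outside the central 95% of kept genes, one on each side.

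At 13 vs 8 months 0 of 5 were counted, beside 0.716% of kept genes higher and 0.362% lower. Fabp4, Pparg and Lpl were higher, by 0.33, 0.32 and 0.30, and Cd36 and Mogat1 were at -0.02 and -0.09. The 3 genes that were below their 4-month level at 8 months are the 3 that were higher at 13 than at 8 months. Both steps use the 8-month array with opposite signs, so a deviation of that pool alone enters both. At 13 vs 4 months 0 of 5 were counted, beside 0.837% higher and 0.457% lower, and Mogat1 had the largest difference, 0.39.

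At 21 vs 13 months 0 of 5 were counted again, beside 1.47% of kept genes higher and 0.457% lower. Lpl was higher by 0.40, Cd36 by 0.29 and Fabp4 by 0.10, and Mogat1 and Pparg were at -0.10 and -0.12. The median over the 5 members was 0.29 at 21 vs 4 months, and the median over all kept genes was 0.01. The medians at 8 vs 4 months were -0.07 and 0. At 21 months all 5 members were above their 4-month level, as were 51.4% of all kept genes. The 5 differences share the 4-month and 21-month arrays, so a deviation of either pool enters each of them. For Fabp4 the direction at 21 vs 4 months depended on the probe set, as given above.

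Over the 4 ages together Cd36 and Lpl spanned the most among the members. The highest value was at least 1.5-fold above the lowest in these 2 of the 5 kept members and in 5.42% of all kept genes. The median span was 0.48 in the members and 0.22 in all kept genes. No member had 1 age at least 1.5-fold above all the others, which 1.02% of kept genes had, or 1 age at least 1.5-fold below all the others, which 0.371% had.

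The genes with the profiles most like Cd36 and Lpl were found by Euclidean distance between the 4 log2 values, each gene taken relative to its own mean, among 626 genes that spanned at least 1.5-fold. For Cd36 these were Efemp1, an extracellular matrix protein, at a distance of 0.046, 2010003K11Rik at 0.073 and the DNA polymerase gene Poll at 0.085. Efemp1 was at 5.72, 6.08, 6.07 and 6.40, with the same pause between 8 and 13 months as the representative probe set of Cd36. For Lpl they were Arhgap18 at 0.020, the sialyltransferase gene St3gal1 at 0.075 and the kinase gene Camk1d at 0.090. Arhgap18 was at 5.25, 4.79, 5.09 and 5.47. Likeness over 4 arrays describes the order and size of the steps and nothing more.

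**Figure D3:**
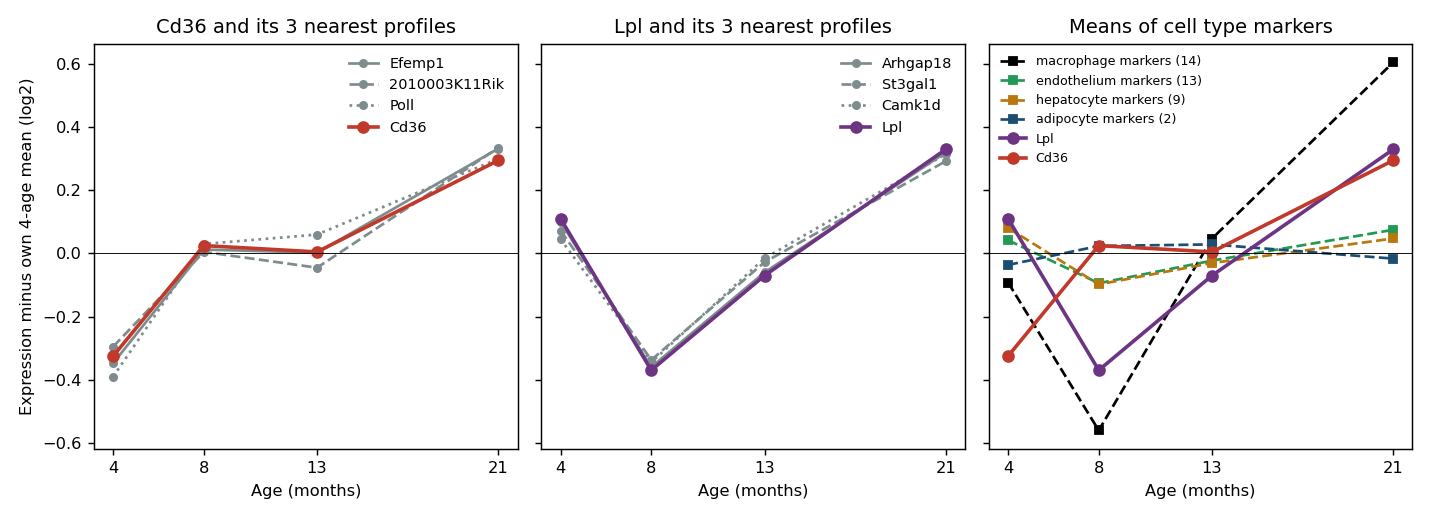
Expression relative to each gene's own mean over the 4 ages (log2, vertical axis) against age in months. The left and middle panels set Cd36 and Lpl beside their 3 nearest profiles, and the right panel sets both beside the mean of kept markers of 4 cell types, with the number of markers in brackets. Lpl and the means of the macrophage and endothelium markers were lowest at 8 months and highest at 21 months. Cd36 was lowest at 4 months.

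Other genes of the same pathway were described by lists. Of 25 genes for PPAR-gamma, its partners and coregulators, 21 were kept. None was past 1.5-fold at 8 vs 4, 13 vs 8 or 21 vs 13 months. At 21 vs 4 months 2.11% of all kept genes were higher by that size and 0.423% lower. The list median there was -0.04, and 1 gene of the list was higher by that size. This was Srebf1, a regulator of fatty acid synthesis, at 8.00, 8.18, 8.56 and 8.90, the highest at 21 months. The partner Rxra was at 8.60, 8.57, 8.69 and 8.74, and the related receptor Ppara, which drives fat burning in the liver, at 9.71, 9.84, 9.65 and 9.51.

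Of 22 genes for fatty acid uptake, binding and activation 19 were kept. At 21 vs 4 months 2.11% of all kept genes were at least 1.5-fold higher. In the list Cd36 was 1 of the 2 that were higher by that size. The other was Fabp7, a fatty acid binding protein known from the brain, at 4.64, 4.89, 5.22 and 5.68, higher at each age than at the one before. Fabp5, which is expressed in skin and macrophages, was at 7.44, 7.16, 6.76 and 7.84, so it was higher by 1.08 at 21 vs 13 months after its lowest value. Cav1, the caveolin of membrane caveolae, went the other way at that step, at 5.08, 5.31, 5.68 and 4.89, a difference of -0.79. The liver's main fatty acid binding protein gene, Fabp1, stayed between 12.65 and 12.80, and the transporter gene Slc27a5 between 11.57 and 11.69. The list median without its members Cd36 and Fabp4 was 0.01 at 21 vs 4 months.

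Of 26 genes for lipase, lipoprotein receptors and their regulators 19 were kept. At 21 vs 4 months 1 was at least 1.5-fold higher and 1 lower, beside 2.11% and 0.423% of all kept genes. Both encode inhibitors of lipoprotein lipase. Angptl4, which is induced by fasting, was at 9.18, 8.86, 8.88 and 8.51, a difference of -0.67 at 21 vs 4 months. Angptl8, which is induced by feeding, was at 6.48, 7.13, 6.12 and 7.12, high in the 8-month and 21-month pools and low in the other 2. Its differences were 0.65, -1.01 and 1 at the 3 steps. The sources used here do not give the hours of feeding or of tissue collection. Gpihbp1, which anchors the lipase to capillaries, stayed between 7.87 and 8.01, and its activator Apoc2 was at 10.18, 10.21, 10.28 and 10.36. The list median was 0.06 at 21 vs 4 months.

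Mogat1 stood on the higher side of a glyceride synthesis list whose other genes were mostly lower in the oldest pool. All 16 genes of the list were kept and none passed 1.5-fold in any of the 6 comparisons. At 21 vs 4 months 3 were higher, among them Mogat1, and 13 lower, with a median of -0.11. Gpat3 was higher by more than Mogat1, 0.37 against 0.29. It was at 6.22, 6.53, 6.49 and 6.59, also lowest at 4 months. Of all kept genes 51.4% were higher and 45.2% lower at 21 vs 4 months. Dgat1 and Dgat2, which add the last fatty acid of a triglyceride, were at -0.15 and -0.01. Mogat2, the second enzyme with the activity of Mogat1, was at 3.86, 3.78, 3.70 and 3.82, at the limit of level.

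PPAR-gamma target genes known from fat cells and fatty liver include Fitm1, which helps form lipid droplets, and G0s2, which inhibits fat breakdown. Fitm1 was at 8.00, 8.66, 8.63 and 8.70, lowest at 4 months like Mogat1 and the representative probe set of Cd36. Fitm2 of the same list was at 7.56, 7.65, 7.39 and 7.22, lowest at 21 months. G0s2 was at 7.34, 8.31, 7.36 and 7.44, high at 8 months alone. The part of PPAR-gamma in the values of the listed genes was not tested. Cidea, which fuses lipid droplets, was at 2.69, 3.87, 3.84 and 6.71. It was kept through its 21-month value, and its 4-month value was below the limit, so it is left out of the counts here, a choice made after its values were seen.

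Without Cidea 17 of the listed target genes were kept, 4 of them members. In the first step, 8 vs 4 months, Fitm1 and G0s2 were at least 1.5-fold higher and none was lower by that size. Of all kept genes 0.501% were higher and 0.354% lower by that size. The list median was 0.19, with or without the members, beside 0 for all kept genes. At 21 vs 4 months Fitm1 and Cd36 were at least 1.5-fold higher and Angptl4 lower, beside 2.11% and 0.423% of all kept genes. The list median was then 0.07, or 0.03 without the members. At 21 vs 8 months it was -0.19, or -0.25 without the members. Lpl was past the size upward and G0s2 downward, beside 2.66% and 0.699% of all kept genes. With Cidea in the list the medians at 8 vs 4 and 21 vs 4 months were 0.235 and 0.085.

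**Figure D4:**
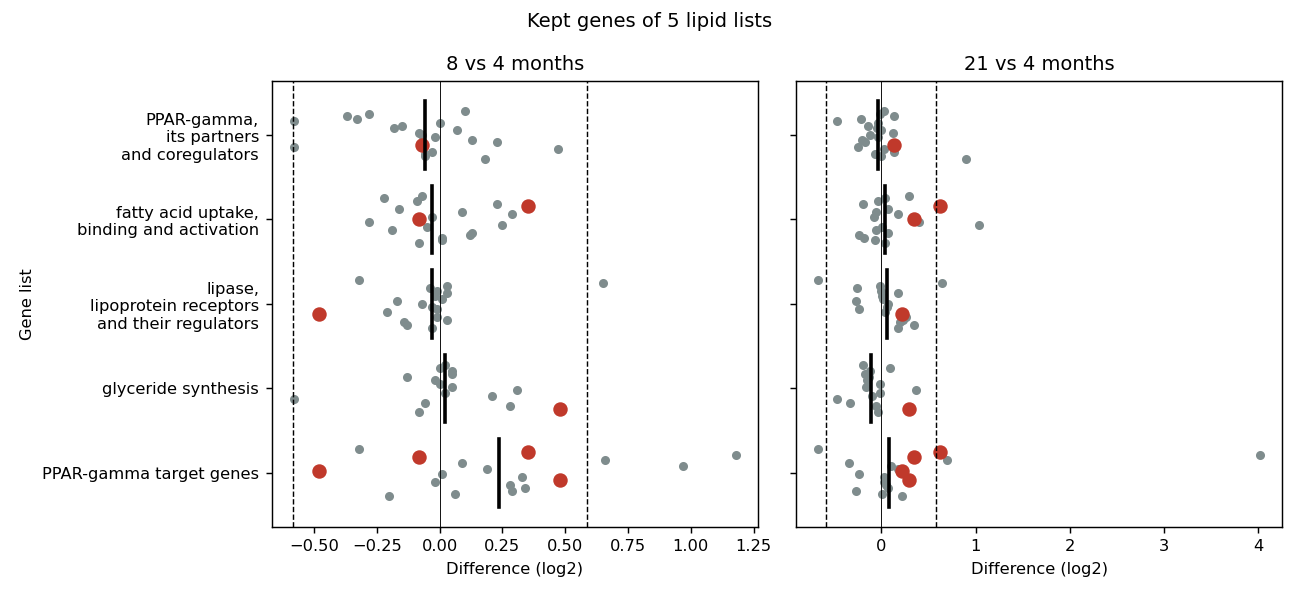
Log2 difference (horizontal axis, a different scale in each panel) of the kept genes of 5 lists (vertical axis) at 8 vs 4 months and at 21 vs 4 months. Red points are the members, grey points other genes, black bars list medians and dashed lines 1.5-fold, and a gene in more than 1 list is drawn in each. At 8 vs 4 months the target gene list has the highest median, 0.235, or 0.19 without Cidea. Cidea is drawn, at 4.02 at 21 vs 4 months, but was left out of the counts in the text. Its 4-month value was below the level limit and it was kept through its 21-month value.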

How the data were processed

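Liver RNA was measured on 4 oligonucleotide arrays, 1 per age, with groups taken from the labelled age. Per the submitters' processing notes, the deposited log2 values were made by the authors with RMA, a method that removes background, brings arrays to a common distribution and combines the probes of a set. Its version and the arrays it was run on are not given in the sources. RMA evens out shifts shared by most genes and compresses dim probe sets, and no detection calls were used.

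Of 45101 probe sets 34945 had 1 gene symbol in the platform annotation, and 34741 of these were matched by gene identifier to RefSeq, which changed 0 symbols. Genes were kept when the mean of their highest probe set was at or above 3.74. Differences were counted at 1.5-fold in 6 comparisons of ages, with no test. The members, gene lists and marker lists were chosen with earlier results of these data known. Up to 4 genes per list and comparison past 1.5-fold, and the 3 nearest profiles of each member that spanned 1.5-fold, are named by rule. Genes named to show the range of a list were chosen after their values were seen. The lists of stellate cell, skeletal muscle and lipid-associated macrophage markers had medians of 0.19, 0.025 and 0.27 at 21 vs 4 months, over 8, 4 and 4 kept genes.

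The counting code was run on simulated data with small noise, which checks the code and says nothing of the differences between these pools. Quantile and cyclic loess normalization, 2 of the alternatives, used limma 3.58.1 in R 4.3.3, and all else used Python 3.11.15 with pandas 2.3.3 and numpy 2.4.6.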

Additional observations from a re-analysis of the deposited data

How the results depend on the processing

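Each count was recomputed with each gene's mean over its probe sets, the probe set with the largest range, median centring, quantile normalization, cyclic loess, other filters on level, and thresholds of 2-fold and of a log2 difference of 0.32, and 2 comparisons also against the mean of the 3 other arrays. Of the 14 counts 12 were 0, and 117 of their 123 recomputed values were 0 too, which says little because a stricter setting cannot lower them. For the other 2 counts 15 of 21 recomputed values stayed within 1.5 times. Each of these counts is 1 gene well above every level filter, so the filter settings could not change it. For Lpl the probe set of the largest range was also the main one. The count of members higher at 21 vs 4 months was 1 (Cd36) and became 0 with quantile normalization, where Cd36 was at 0.57, 0 against the 3 younger arrays, 0 at 2-fold and 2 at 0.32. The count higher at 21 vs 8 months was 1 (Lpl) and became 0 at 2-fold and 2 at 0.32. At 0.32 the counts that were 0 became 2 higher and 1 lower at 8 vs 4 months, 1 higher at 13 vs 8 months, 1 higher at 21 vs 13 months, 2 higher at 13 vs 4 months and 1 member with an age below all others. Of 190 recomputed differences of single members 4 changed sign, none of them a difference past 1.5-fold. They were Fabp4 at 21 vs 13 and 21 vs 4 months and Vldlr at 13 vs 8 months with the mean over probe sets, and Cd36 at 13 vs 8 months with the probe set of the largest range. Some of the 190 could not change. Pparg and Mogat1 have 1 probe set, and the probe set of the largest range was the main one for every member but Cd36. The arrays at 4, 8 and 13 months have the same median, so median centring left differences among them as they were. No paired analysis was possible because each age has 1 array. Signal near background limits Vldlr and Mogat1.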

Other observations

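Some other lipid genes, none of them past 1.5-fold at 8 vs 4 months, are given for that step. The coactivator gene Ppargc1a, which raises mitochondrial and fasting genes, was at 6.08, 5.50, 5.93 and 5.83 at 4, 8, 13 and 21 months, and Lpin1, a phosphatidate phosphatase that also acts with it, was at 10.06, 9.48, 9.81 and 9.59. Both were at -0.58 at 8 vs 4 months, and like Lpl both were lowest at 8 months. The droplet coat genes Plin2, Plin4 and Plin5 were at 0.28, 0.34 and 0.29 at 8 vs 4 months, within the central 95% of kept genes. Cidec, a droplet protein related to Cidea, was below the level limit on average, at 2.93, 3.45, 3.55 and 4.05, with its highest value in the oldest pool. These genes were chosen after their values were seen.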
